A study of Mus musculus with 5 samples.

Results

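The genes described here encode heat shock proteins and folding chaperones. They were chosen by annotated symbol alone: a probe set was a member if its 1 gene symbol began with Dnaj, Hspa, Hspb, Hspd, Hspe, Hsph, Hsp90 or Pdia, or with Cct and a digit. This gave 208 of 45037 probe sets and 86 of 18193 annotated genes. Expression had been measured on Affymetrix mouse whole-genome arrays in 2 kinds of bone marrow progenitor, both taken from C57BL/6 mice of wild-type genotype. The tested population was the common dendritic cell progenitor (CDP, 3 arrays), sorted without lineage markers and Sca-1, with intermediate c-Kit, with CD34, Flk2 and CD115, and without CD16/32. It was set against the common myeloid progenitor (CMP, 2 arrays), sorted without lineage markers, Sca-1, CD11c, CD16/32 and CD115, with high c-Kit and with CD34 and Flk2. Each extract came from 10000 to 30000 cells sorted in 2 passes and was amplified over 2 cycles. The title of CDP 3 has another prefix than the other titles, while its other labels give bone marrow and CDP. The labels give no age, sex or treatment, and leave unsaid whether each array stands for its own animal. The p-values therefore rest on the scatter among these 5 arrays, part of which may be technical.

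Chaperones bind unfolded protein chains and keep them from clumping while they fold. Hsp70 proteins do so in cycles of ATP hydrolysis that J-domain proteins (the Dnaj genes) start and that Hsp110 proteins reset by exchanging the nucleotide, while Hsp90 acts later on kinases and receptors, and the ring-shaped chaperonins close around a chain. Each compartment has its own set, and heat shock factor 1 drives many of the cytosolic and mitochondrial genes in stressed cells, as the unfolded protein response does for those of the endoplasmic reticulum.

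Values are the deposited log2 expression values, and a value is called detected at log2 5 or more. That share of probe sets was 34.0% to 35.8% on the 5 arrays. In the check of the sort, Itgax (CD11c) was detected on all CDP arrays and on no CMP array, and Kit read 7.18 to 7.75 in CDP and 10.04 and 10.20 in CMP. Csf1r, which encodes CD115, read 12.94 to 13.16 in CDP and 11.03 and 11.75 in CMP, so its transcript was plentiful in cells sorted without the protein. Flt3 (Flk2) and Cd34 were detected on every array. Fcgr3, which encodes CD16, was detected on CDP 2 and CMP 2 alone, at 5.40 and 5.38. Of 8 neutrophil markers, all 8 were detected on CDP 2 and none on another array, with summed log2 values of 20.67, 78.03 and 20.33 on CDP 1, CDP 2 and CDP 3 and 23.37 and 21.82 on CMP 1 and CMP 2. The 6 erythroid markers with a probe set also varied, with sums of 17.83, 35.37 and 24.11 in CDP and 31.95 and 24.05 in CMP, and Alas2 was detected on CDP 2 alone, at 8.80. Of 4 B cell markers with a probe set, 2 were detected on each CDP array and 1 on each CMP array. Of 5 macrophage markers, 1, 2 and 1 were detected on CDP 1, CDP 2 and CDP 3 and 0 on the CMP arrays. The part of other cells in the results was not tested. CDP 1 and CMP 1 were low in 5′ signal of the beta-actin control probe sets: the 3′ minus 5′ difference was 8.05, 2.12 and 4.48 on CDP 1, CDP 2 and CDP 3, and 7.35 and 1.81 on CMP 1 and CMP 2. The Gapdh control probe sets ordered the arrays differently, with 3′ minus 5′ differences of 4.64, 3.88 and 6.6 on CDP 1, CDP 2 and CDP 3 and 4.71 and 3.22 on CMP 1 and CMP 2, so that CDP 3 had the largest difference by Gapdh. The division of arrays used below follows beta-actin alone. Differences are therefore also given within the pair low in 5′ signal (CDP 1 minus CMP 1) and among the others (the mean of CDP 2 and CDP 3 minus CMP 2).

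Most chaperone genes had small differences between CDP and CMP, within 1 log2 unit for 54 of the 59 tested. A probe set was tested when at least 2 of 5 arrays reached log2 5, which 122 of the 208 did, covering 59 of the 86 genes. Each difference is CDP minus CMP on the log2 scale, with its standard error (SE), from limma over all 16552 tested probe sets with Benjamini-Hochberg adjustment and a threshold of 0.05. Of the 122 probe sets 3 passed, namely 1 higher in CDP (of Dnajb6) and 2 lower (both of Dnajc6), where 1.73% of all tested probe sets passed, 1.31% higher and 0.423% lower. With the brightest probe set standing for each gene, 1 of 59 genes was lower in CDP (Dnajc6), none was higher and 58 did not pass, against 2.14% of all 8449 tested genes, 1.67% higher and 0.473% lower. At an unadjusted p under 0.05, limma gave 4 chaperone genes higher and 4 lower, where the shares of all tested genes were 12.6% and 4.52%. Differences of at least 1 log2 unit were seen for 5 chaperone genes (8.47%), against 19% of all tested genes. The SE of a chaperone gene was 0.30 to 1.06, and the smallest difference called in this fit was 1.86. In such bulk extracts a smaller number of cells that express a gene and less RNA per cell cannot be told apart.

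**Figure D1:**
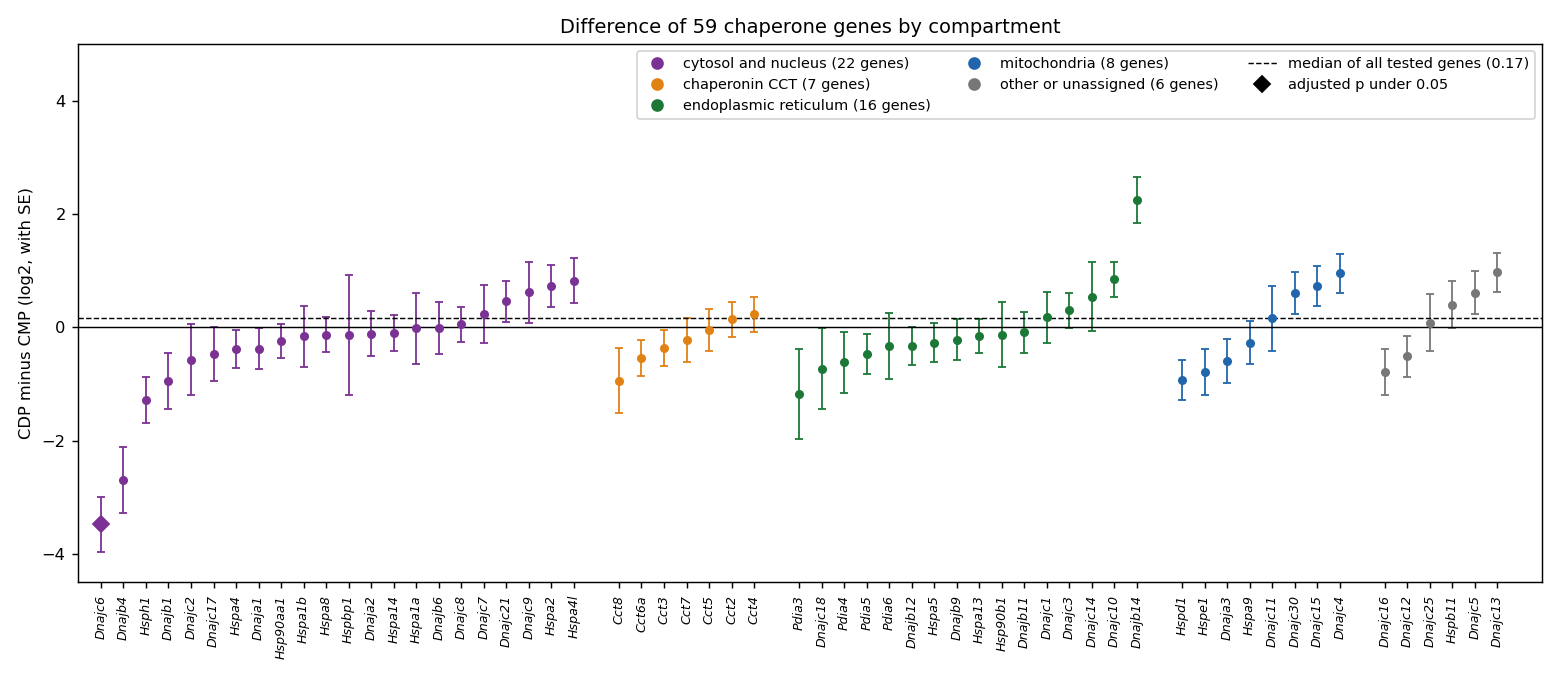
CDP minus CMP (log2, vertical axis) of the 59 tested chaperone genes, each as a point with its standard error, in the order of their differences within each compartment. The diamond marks Dnajc6, the gene past the threshold, at -3.48, and the dashed line is the median of all tested genes, 0.17.

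The gene past the threshold was Dnajc6, which encodes auxilin, the J-domain protein that brings Hsc70 to clathrin coats so that they come apart. Its brightest probe set read 5.0, 4.57 and 5.85 on CDP 1, CDP 2 and CDP 3, and 9.0 and 8.23 on CMP 1 and CMP 2. Every CDP array lay below both CMP arrays, and CDP 2 lay below the detection level. Dnajc6 was at least 10.1-fold lower in CDP, a bound for which the value below log2 5 was set to 5, with a difference of -3.48 ± 0.49 (SE, limma adjusted p = 0.0364). A second probe set read 2.96, 2.29 and 3.72 in CDP and 7.40 and 6.04 in CMP, a difference of -3.73. It entered the test only through the CMP arrays, where it is high, so its call adds no support. Neither probe set carries the suffix that marks a match to several transcripts. Of 2 further, untested probe sets of Dnajc6, 1 stayed at the lowest value of the table on every array and the other reached log2 5 only on CMP 1, at 5.91. The difference was -4.00 within the pair low in 5′ signal and -3.02 among the others. Without any single array it kept its sign but not its call, in fits that called 0 to 42 probe sets higher and 0 to 2 lower among all: it was -3.41, -3.19 and -3.83 without CDP 1, CDP 2 and CDP 3, and -3.09 and -3.86 without CMP 1 and CMP 2 (limma adjusted p = 0.0895 to 0.184).

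Among other J-domain proteins of the cytosol, Dnajb4 came next. Dnajb4 and Dnajb1 are Hsp40 proteins of one class that hand substrates to Hsp70. Dnajb4 read 9.19, 7.47 and 7.63 in CDP and 10.91 and 10.66 in CMP. All CDP arrays lay below both CMP arrays, with CDP 1 the nearest, and the difference of -2.69 ± 0.58 did not pass (limma adjusted p = 0.0957). It was -1.72 within the pair low in 5′ signal and -3.11 among the others. Dnajb4 passed with the 5′ signal as a block in the fit (limma adjusted p = 0.0151, where the alternatives ranged to 0.453). That fit called 1024 probe sets higher and 414 lower among all, where the reported fit called 217 and 70. Dnajb1 read 14.03, 12.75 and 12.66 in CDP and 14.22 and 13.98 in CMP, so that CDP 1 lay with the CMP arrays, and its difference was -0.95 ± 0.50 (limma adjusted p = 0.427). A second, dimmer probe set of Dnajb1 read 7.50, 8.10 and 8.19 in CDP and 7.03 and 8.21 in CMP, of the other sign (0.31 ± 0.47).

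Dnajb6, a J-domain protein that keeps aggregation-prone proteins soluble, gave readings that depended on the probe set. Its brightest read 12.02, 12.13 and 11.44 in CDP and 11.30 and 12.45 in CMP, with overlapping groups and a difference of -0.01 ± 0.46 (limma adjusted p = 0.992). Its dimmest probe set, at 7.22, 6.74 and 7.38 in CDP and 4.74 and 5.04 in CMP, was higher in CDP by a factor of at least 4.27 (2.22 ± 0.35, limma adjusted p = 0.0453), and every CDP array lay above both CMP arrays. Of the CMP arrays only CMP 2 reached log2 5 on it. The probe set thus met the filter through the CDP arrays, where it is high, so its call adds no support. The number of chaperone probe sets called higher was 0 without a filter, with the filter at log2 4, quantile normalization, median scaling, trended variance or array weights, and without any single array. The other 2 probe sets gave -0.73 ± 0.78 and 0.40 ± 0.82 and did not pass. The probe sets of this gene thus disagreed, and which transcript each one reads was not analysed here. The same held more widely: of 34 chaperone genes with several tested probe sets, 13 had differences of both signs, 14 only negative and 7 only positive ones.

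**Figure D2:**
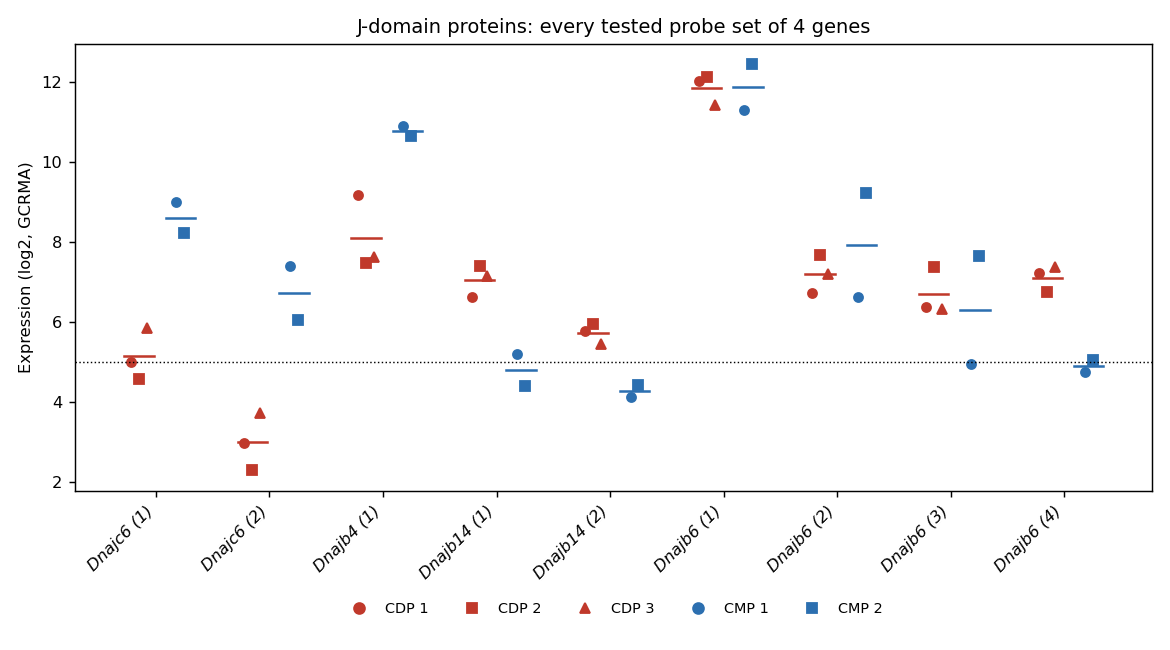
Expression (log2, vertical axis) on each array for every tested probe set of 4 J-domain genes, numbered in parentheses from the brightest of a gene, with CDP in red, CMP in blue, a bar at each group's mean and a dotted line at log2 5. CDP lies below CMP on both Dnajc6 probe sets (means 5.14 and 8.62 on the first), and all CDP points lie above both CMP points on the dimmest Dnajb6 probe set, while the groups overlap on the other 3 of that gene.

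The main Hsp70 and Hsp90 genes of the cytosol had small differences. Hspa8, the constitutive Hsc70, read 15.08, 15.27 and 15.32 in CDP and 15.23 and 15.47 in CMP, a difference of -0.13 ± 0.31. Hsp90aa1, the stress-inducible cytosolic Hsp90, read 14.48, 14.29 and 14.41 in CDP and 14.59 and 14.70 in CMP, a difference of -0.25 ± 0.30. Neither gene passed (limma adjusted p = 0.894 and 0.760). On this probe set of Hsp90aa1 all CDP arrays lay below both CMP arrays, as in 10.8% of all tested genes. On its other tested probe sets, at -0.29 ± 0.37 and -0.05 ± 0.33, the groups overlapped. Hsp90ab1 was not analysed here. Hspa14, an Hsp70 that sits with a J-domain protein on ribosomes, was at -0.10 ± 0.32, and its J-domain partner Dnajc2 at -0.57 ± 0.63, with 11.47, 10.08 and 10.07 in CDP and 11.82 and 10.39 in CMP, so that the arrays low in 5′ signal were the highest in both groups.

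Hspa1a and Hspa1b, the heat-inducible Hsp70 genes, were detected in all samples and spread widely within CMP. Hspa1b read 12.20, 12.14 and 12.53 in CDP and 11.59 and 13.30 in CMP, and Hspa1a read 9.26, 9.51 and 9.92 in CDP and 8.59 and 10.58 in CMP. For both genes CMP 1 was the lowest and CMP 2 the highest of the 5 arrays, with all CDP arrays between them. Their differences were -0.16 ± 0.54 and -0.02 ± 0.62 (limma adjusted p = 0.927 and 0.992). The pair are near-identical copies, so the probe sets may not measure them apart.

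Hsph1, an Hsp110 that resets Hsp70, read 10.45, 10.09 and 10.29 in CDP and 11.04 and 12.07 in CMP. All CDP arrays lay below both CMP arrays, and the difference of -1.28 ± 0.41 did not pass (limma adjusted p = 0.211). A second probe set gave 6.94, 7.14 and 6.47 in CDP and 7.99 and 10.05 in CMP (-2.17 ± 0.64, limma adjusted p = 0.179). Its relatives Hspa4 and Hspa4l were at -0.38 ± 0.34 and 0.82 ± 0.40 on their brightest probe sets, with non-overlapping groups, and neither passed (limma adjusted p = 0.654 and 0.392). The 5 tested probe sets of Hspa4l ran from -0.39 to 0.82, and the groups overlapped on all but the brightest. The 3 of Hspa4 ran from -1.90 to -0.38, and the groups overlapped on the second brightest. Of the other key J-domain genes of the cytosol, Dnaja1 (-0.38 ± 0.36), Dnaja2 (-0.11 ± 0.40), Dnajc7 (0.23 ± 0.51) and the histone cochaperone Dnajc9 (0.62 ± 0.54) did not pass, and their groups overlapped. For Dnaja1 that held on the brightest probe set, while its other 2 gave -0.90 ± 0.36 and -0.91 ± 0.43 with all CDP arrays below both CMP arrays.

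The mitochondrial chaperonin genes Hspd1 and Hspe1 encode Hsp60 and its lid Hsp10. Hspd1 read 12.10, 12.61 and 12.35 in CDP and 12.96 and 13.61 in CMP, and Hspe1 read 10.97, 10.97 and 11.01 in CDP and 11.23 and 12.32 in CMP. For both, every CDP array lay below both CMP arrays. The differences were -0.93 ± 0.36 and -0.79 ± 0.41 and did not pass (limma adjusted p = 0.289 and 0.420). They were -0.86 and -0.26 within the pair low in 5′ signal and -1.13 and -1.33 among the others. Hspa9, the mitochondrial Hsp70, was at -0.27 ± 0.38 on its brightest probe set and at -1.18 ± 0.46 and -0.45 ± 0.41 on the others, and Dnaja3, its J-domain partner, at -0.59 ± 0.39. Other mitochondrial J-domain genes were at positive values, with Dnajc15 at 0.73 ± 0.35, Dnajc4 at 0.95 ± 0.35, Dnajc30 at 0.61 ± 0.37 and Dnajc11 at 0.16 ± 0.57. In the first 3 every CDP array lay above both CMP arrays, as in 23.7% of all tested genes, while the groups overlapped for Dnajc11. None passed. Dnajc4, at 4.68 and 5.01 in CMP, met the filter through the CDP arrays, where it is high. Dnajc4, Dnajc30 and Dnajc11 were named after their values were seen.

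A heat shock element, the binding motif of heat shock factors, was looked for as 3 units (GAANNTTCNNGAA, on both strands) in promoter windows of RefSeq on GRCm38.p6, from 250 bases before to 50 bases after each annotated start. It occurred in 4 of the 72 chaperone genes with a window (5.56%), Hsph1, Hspd1, Hspe1 and Dnajb6, and in 0.662% of all 27025 genes with a window. By window, 6 of the 91 chaperone windows and 0.603% of all 32851 held it. Hspd1 and Hspe1 lie head to head, and a window of each shares 285 bases with the other, so 1 stretch (chr1:55088019-55088116) serves both and is printed as Hspe1 reads it, on the plus strand. That of Hsph1 (chr5:149636288-149636317, minus strand) lies just after the annotated start, and that of Dnajb6 (chr5:29735812-29735904, plus strand) 46 or 127 bases before it, depending on which of 2 starts is taken. The stretches are shown to place the element in each gene. Capitals mark the matches, which overlap in Hspe1:
Hspe1: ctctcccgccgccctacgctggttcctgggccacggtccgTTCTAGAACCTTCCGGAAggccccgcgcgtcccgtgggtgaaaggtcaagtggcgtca
Hsph1: gagtaaaatgctgcagaTTCTGGAAAGTTC
Dnajb6: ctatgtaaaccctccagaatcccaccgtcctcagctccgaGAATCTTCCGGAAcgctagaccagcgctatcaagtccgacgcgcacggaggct
A match describes letters in the window and is not evidence of binding. Only exact matches to these letters were looked for, so a gene without a match is not shown to lack the element.

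The cytosolic chaperonin CCT, which folds actin and tubulin, is built from 8 different subunits, and 7 Cct genes were tested. Their differences ran from -0.94 (Cct8) to 0.23 (Cct4), none passed, and 2 were positive. Cct8 read 11.91, 11.54 and 11.71 in CDP and 11.73 and 13.60 in CMP, so that CMP 2 alone stood apart. Cct6a read 14.97, 14.91 and 14.88 in CDP and 15.21 and 15.71 in CMP (-0.54 ± 0.32), and Cct3 13.50, 13.03 and 13.41 in CDP and 13.62 and 13.74 in CMP (-0.36 ± 0.32). In these 2 genes the CDP arrays lay below both CMP arrays on the brightest probe set, as in 10.8% of all tested genes. Of the other tested probe sets of Cct3, those at -1.61 ± 0.83 and -0.25 ± 0.33 overlapped between groups and that at -0.61 ± 0.34 did not. The subunits Cct2 (0.14 ± 0.31), Cct5 (-0.05 ± 0.37) and Cct7 (-0.23 ± 0.39) overlapped between groups. Tcp1, the subunit whose symbol lies outside the rule, was at -0.11 ± 0.33.

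In the endoplasmic reticulum 16 of 17 genes were tested and none passed. The main chaperones there are Hspa5 (BiP, its Hsp70) and Hsp90b1 (GRP94, its Hsp90). Hspa5 read 13.96, 14.21 and 14.17 in CDP and 14.08 and 14.70 in CMP (-0.27 ± 0.34), and Hsp90b1 12.59, 13.47 and 12.93 in CDP and 12.30 and 13.95 in CMP (-0.13 ± 0.57). On these brightest probe sets both overlapped between groups. Another probe set of Hspa5 read 9.21, 8.70 and 9.08 in CDP and 9.96 and 9.70 in CMP, with no overlap (-0.83 ± 0.33, limma adjusted p = 0.299). A further one of Hspa5 gave -0.62 ± 0.64 and the other of Hsp90b1 -0.29 ± 0.43, with overlapping groups. Dnajb9, Dnajb11 and Dnajc3, J-domain partners of BiP, were at -0.22 ± 0.36, -0.09 ± 0.36 and 0.30 ± 0.31. Hspa13, another Hsp70 of the compartment, was at -0.15 ± 0.30, and Dnajc1, a J-domain protein of its membrane, at 0.18 ± 0.45.

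The 4 tested Pdia genes, which encode protein disulfide isomerases that form and rearrange disulfide bonds, all had negative differences, and none passed. Pdia3, the isomerase that works on glycoproteins with calnexin and calreticulin, read 7.76, 9.81 and 9.10 in CDP and 9.12 and 11.01 in CMP, a difference of -1.18 ± 0.79 (limma adjusted p = 0.540). Within each kind of array CDP lay below CMP, with differences of -1.36 within the pair low in 5′ signal and -1.56 among the others. With the 5′ signal as a block Pdia3 passed (limma adjusted p = 0.0403, where the alternatives ranged to 0.907). That fit called far more among all probe sets, 1024 higher and 414 lower, where the reported fit called 217 and 70. Pdia6 read 12.18, 12.89 and 12.57 in CDP and 11.96 and 13.80 in CMP (-0.33 ± 0.59), and Pdia4 and Pdia5 were at -0.62 ± 0.54 and -0.47 ± 0.35.

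Dnajb14 was the member with the largest positive difference. It encodes a J-domain protein of the endoplasmic reticulum membrane that faces the cytosol. It read 6.62, 7.40 and 7.14 in CDP and 5.21 and 4.40 in CMP, and every CDP array lay above both CMP arrays. The fold was at least 3.86 and the difference 2.25 ± 0.41, which did not pass (limma adjusted p = 0.0647). A second probe set read 5.77, 5.96 and 5.45 in CDP and stayed below log2 5 in CMP, at 4.13 and 4.42, a difference of 1.45. Both probe sets met the filter through the CDP arrays, where they are high. Of the CMP arrays only CMP 1 reached log2 5, and only on the first probe set. The tests of this gene are therefore not given as support. The gene passed with the 5′ signal as a block (limma adjusted p = 0.0224), a fit that called 1024 probe sets higher and 414 lower among all. It also passed with the mean of its probe sets, which includes that second one (limma adjusted p = 0.0318). The alternatives ranged to 0.308. Dnajc10, a disulfide reductase of the lumen with a J domain, read 10.82, 10.89 and 10.97 in CDP and 10.21 and 9.89 in CMP, again with no overlap (0.85 ± 0.31, limma adjusted p = 0.259). Its 3 tested probe sets gave 0.85 to 1.03. Dnajc13, an endosomal J-domain protein, read 9.49, 9.94 and 9.96 in CDP and 9.04 and 8.61 in CMP (0.97 ± 0.34, limma adjusted p = 0.248).

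The stress element of the endoplasmic reticulum, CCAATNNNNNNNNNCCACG, was looked for in the same windows on both strands. It occurred in 4 of the 72 chaperone genes (5.56%), Hspa5, Hsp90b1, Pdia6 and Dnajc3, and in 0.137% of all genes. By window, 4 of the 91 chaperone windows and 0.119% of all held it. None of these 4 genes passed. On their brightest probe sets the groups overlapped for all but Dnajc3. Its CDP arrays read 10.26, 10.05 and 9.92 against 9.72 and 9.83 in CMP, while its other 3 tested probe sets had negative differences. The stretches around Hspa5 (chr2:34771985-34772083, plus strand) and Pdia6 (chr12:17266451-17266549, plus strand) are shown to set this element beside the heat shock element, with the match in capitals:
Hspa5: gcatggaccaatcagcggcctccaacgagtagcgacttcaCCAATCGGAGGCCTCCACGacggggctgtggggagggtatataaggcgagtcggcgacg
Pdia6: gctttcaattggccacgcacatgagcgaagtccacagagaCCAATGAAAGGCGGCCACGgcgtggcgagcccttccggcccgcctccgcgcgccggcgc
The Hspa5 match begins 65 bases and that of Pdia6 98 bases before the annotated start.

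**Figure D3:**
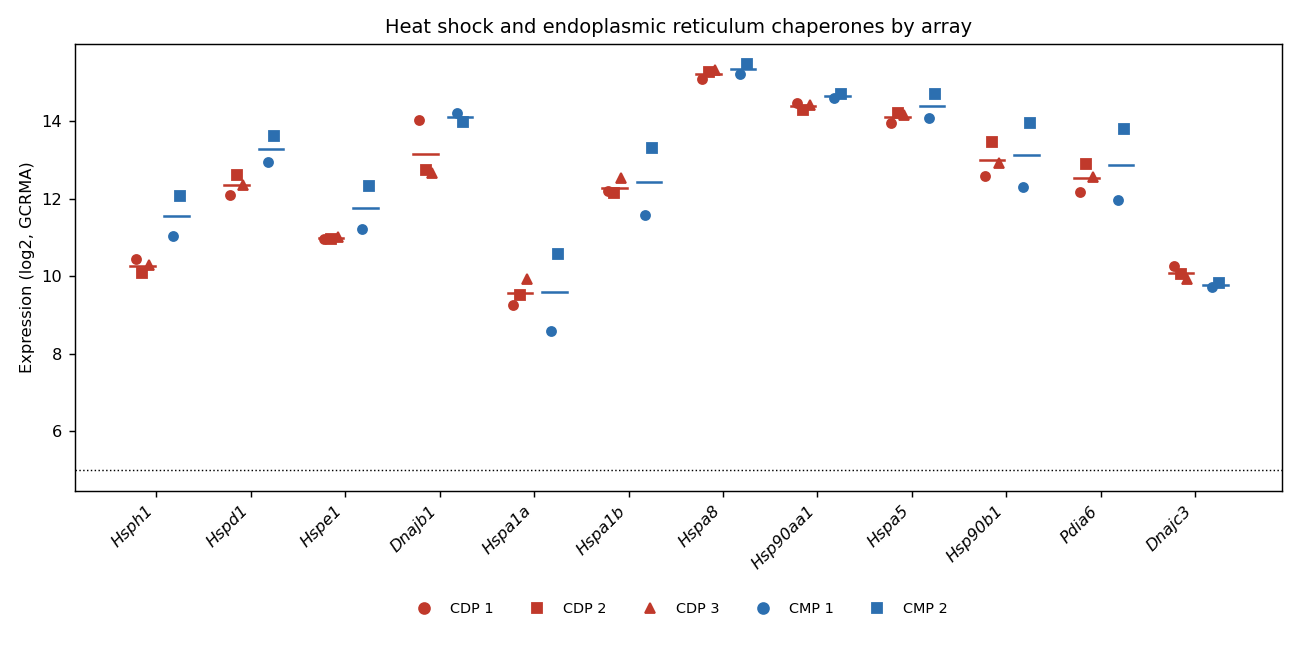
Expression (log2, vertical axis) of 12 chaperone genes on each array, CDP in red and CMP in blue, with a bar at each group's mean. Hsph1, Hspd1 and Hspe1 have all CDP points below both CMP points, whereas Hspa1a, Hspa1b, Hsp90b1 and Pdia6 have CMP 1 below and CMP 2 above every CDP point.

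The 27 genes without a tested probe set included all 7 small heat shock proteins, ATP-independent holdases that bind unfolding protein. The highest reading of Hspb1 (Hsp27) was 2.45 and that of Hspb8 was 2.26, the lowest value of the table. Hspb6 read 3.47, 4.85 and 5.37 in CDP and 2.53 and 3.21 in CMP, and was detected on CDP 3 alone. Other untested genes were Hspa1l, Hspa12a, Hspa12b, Cct6b, Pdia2 and J-domain genes such as Dnaja4, Dnajb5 and Dnajc22, which stayed below log2 5 on every array. Dnajc24 and Dnajc27 reached 5.43 and 5.39 on 1 CMP array each. Dnajc19 was left out because it had no probe set annotated to exactly 1 symbol. In all, 3 probe sets with several symbols included a symbol that fits the rule, and they were left out.

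By compartment, the medians of 4 sets of tested genes were below that of all tested genes (0.17), and that of the 6 genes assigned to none of them was 0.24, with the quartiles of the 59 chaperone genes at -0.49 and 0.23. The median was -0.13 for the 22 genes of the cytosol and nucleus, -0.23 for the 7 of CCT, -0.19 for the 16 of the endoplasmic reticulum and -0.05 for the 8 of mitochondria. Over all 59 genes it was -0.13, with 21 differences (35.6%) positive and 38 (64.4%) negative, where 60.6% of all tested genes were positive and 39.4% negative. Quantile normalization, which moved the median of all tested probe sets from 0.12 to 0.00256, put the chaperone median at -0.18, and median scaling put it at -0.26. It was -0.01 without a filter on low values and -0.05 without probe sets able to match several transcripts. All CDP arrays lay below both CMP arrays for 12 of the 59 genes (20.3%), where 10.8% of all tested genes did so, and above both for 9 (15.3%), where 23.7% did so. By probe set, 23 (18.9%) of the 122 lay below, where 11.0% of all tested probe sets did, and 13 (10.7%) above, where 21.2% did.

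The negative values of these medians rested largely on CMP 2. Of the 59 genes, 26 (44.1%) had their highest value on CMP 2, as did 21.8% of all tested genes. Between the arrays low in 5′ signal the chaperone median was 0.14 (all tested genes 0.17), and among the others it was -0.34 (all tested genes 0.13). There, 40 of 59 genes (67.8%) were negative, against 43.6% of all tested genes, while within the pair low in 5′ signal 27 (45.8%) were, against 38.4%. Without CMP 2 the median of the 59 genes was -0.01, and those of the cytosol, CCT, endoplasmic reticulum and mitochondria were 0.03, -0.01, 0.02 and 0.06. Without CMP 1 these 5 medians were -0.30, -0.45, -0.43, -0.21 and -0.15. Without CDP 2, the array with neutrophil transcripts, they were -0.16, -0.17, -0.22, -0.18 and -0.03. The medians of all tested genes were not computed for these fits, so the gap to all genes without CMP 2 is not known. The median deviation from a gene's mean was -0.10 on CMP 1 and 0.23 on CMP 2 for the 59 genes. For all tested genes it was -0.18 and -0.04. The part of the 5′ signal in these differences was not tested beyond this.

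**Figure D4:**
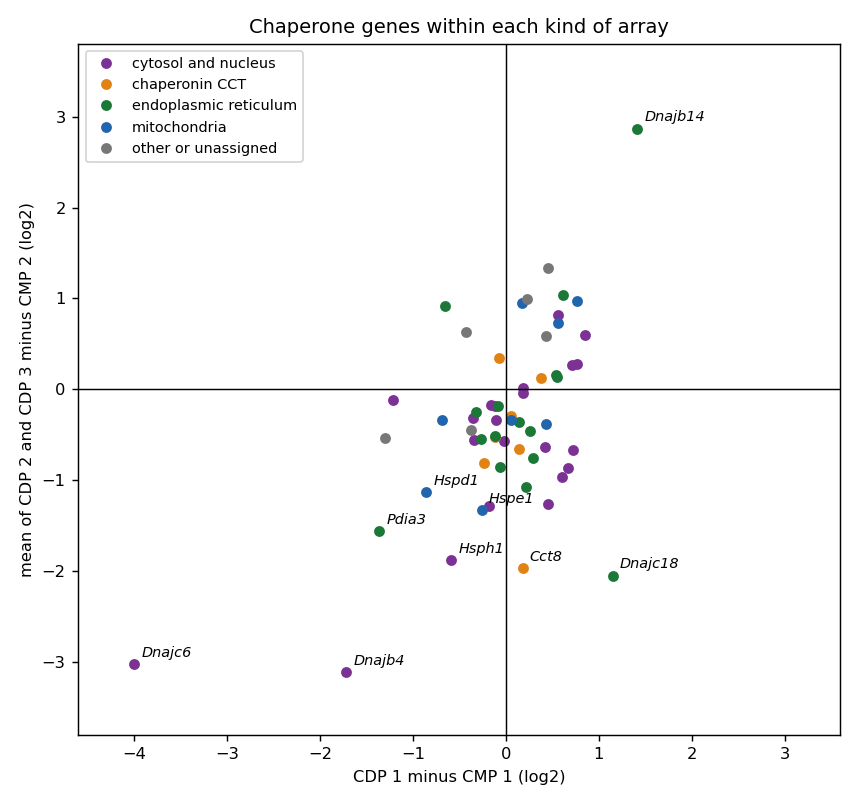
Log2 difference within the pair low in 5′ signal (CDP 1 minus CMP 1, horizontal axis) and among the others (mean of CDP 2 and CDP 3 minus CMP 2, vertical axis) for the 59 chaperone genes, coloured by compartment. In the lower left 24 genes are negative in both, in the upper right 16 are positive in both, and in the lower right 16 are positive in the first and negative in the second.

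The brightest chaperones leaned one way. Among 19 chaperone genes with a mean of log2 12 or more, a limit chosen after the values were seen, 17 differences were negative and 2 positive (Cct2 and Cct4), with a median of -0.27. Of all 632 tested genes as bright, 319 were negative and 313 positive, with a median of -0.01. None of the 19 passed (limma, 1 at an unadjusted p under 0.05), and their median was -0.02 within the pair low in 5′ signal and -0.57 among the others, where that of all bright genes was 0.08 and -0.02.

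Cochaperones and regulators outside the symbol rule were described in the same way. The list of heat shock factors had 1 gene with a probe set, which was not tested. Of 16 tested cochaperones of Hsp70 and Hsp90 none passed, with a median of -0.27. The lowest was Chordc1, an Hsp90 partner, with 13.57, 12.05 and 12.21 in CDP and 13.78 and 13.62 in CMP (-1.09 ± 0.52). Of 8 genes of chaperonin and prefoldin none passed (median 0.09), nor did any of 6 mitochondrial partners (median -0.19).

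Of 17 tested folding genes of the endoplasmic reticulum none passed, with a median of -0.16. Hyou1, the Hsp110 of that compartment, read 9.45, 9.28 and 9.73 in CDP and 10.92 and 10.54 in CMP (-1.24 ± 0.33, limma adjusted p = 0.151). Calr, which encodes calreticulin, read 13.43, 12.80 and 13.19 in CDP and 14.37 and 14.12 in CMP (-1.10 ± 0.34, limma adjusted p = 0.202). For both, every CDP array lay below both CMP arrays. Of 9 genes of the unfolded protein response none passed (median 0.23). All CDP arrays lay above both CMP arrays for 4 of the 9 and below both for 1, where 23.7% and 10.8% of all tested genes did so. Its sensors Atf6 (0.99 ± 0.34) and Eif2ak3 (0.97 ± 0.35) were among those above. The sensor Ern1 (-0.56 ± 0.34) was the 1 below, and its target Xbp1 was at 0.15 ± 0.32. The single genes of these lists were picked for naming after their values were seen.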

How the data were processed

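Total RNA of sorted CDP (3 arrays) and CMP (2 arrays) was amplified and hybridised, per the labels' protocols. The authors deposited log2 expression values made with GCRMA, per the submitters' processing notes; GCRMA as a method corrects background by probe sequence, normalizes quantiles and summarises probes. The version is not given in the sources used here. Values ran from 2.256, shared by many probe sets, to 16.59. Such low values have no order, and the number of arrays limits precision. Groups came from sample titles, of which that of CDP 3 has another prefix.

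Names came from GEO's annotation of the platform, by probe set (34945 with 1 symbol, 932 with several, 9160 with none). All 86 member genes matched RefSeq by identifier, and 0 symbols changed. No further normalization was applied. The comparison used lmFit and eBayes of limma 3.58.1 (R 4.3.3), both tails, with 3 degrees of freedom from residuals and 3.14 from the prior. All adjusted p-values are from limma. Where several probe sets of a gene were tested, the brightest on average stood for it. Group comparisons give single array values because groups are small. Tested on simulated data made for CDP over CMP at 16552 probe sets, changes of 2, 3 and 4 log2 units were called in 14%, 42% and 50% of 50 changed probe sets each, and of 1 unit in 0.

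The members and all gene lists were chosen with earlier results of these data known. Named were genes with a called probe set, the 6 largest differences in each direction among genes at log2 7 or more on 2 arrays, and a fixed key set. Compartments were assigned by hand from textbook knowledge. Alternatives changed the filter, scaling, variance model, array weights, blocks, probe sets and arrays used. Replicate numbers were left out as a block in the reported comparison, since no label says that they pair samples, and an alternative fit included them.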

Additional observations from a re-analysis of the deposited data

How the results depend on the processing

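Over 19 alternatives, 796 of 809 recomputed values of the 43 named tested genes kept their side of the threshold, 8 lost a call (all Dnajc6) and 5 gained one. Of the 43 genes, 25 kept one sign throughout and 18, all with differences that did not pass, changed sign somewhere.
Over all probe sets, 217 were higher and 70 lower in CDP. These counts became 29 and 26 without a filter, 432 and 176 with the replicate block, 1024 and 414 with the 5′ signal as a block, and 0 and 0 when both arrays low in 5′ signal were left out. The lower count was 45 with the filter at log2 7 and 41 with the filter on the mean. Leaving out 1 array gave 0 to 42 higher and 0 to 2 lower.
Of the chaperone probe sets, 1 was higher and 2 lower. The higher count was 0 without a filter, with the filter at log2 4, quantile normalization, median scaling, trended variance, array weights and when both arrays low in 5′ signal were left out, and 3 with the 5′ signal as a block. The lower count was 1 with the filters at log2 4, at log2 7 and on the mean and with trended variance, 0 without a filter, with array weights and when both arrays low in 5′ signal were left out, and 5 with the 5′ signal as a block. Leaving out 1 array gave 0 for both.
Of the chaperone genes, none was higher and 1 lower. With the 5′ signal as a block 1 was higher (Dnajb14) and 3 lower (Dnajc6, Dnajb4 and Pdia3), with the replicate block 2 were lower (Dnajc6 and Dnajb4), with gene means 1 was higher (Dnajb14), and none was lower without a filter, with array weights or without both arrays low in 5′ signal. Leaving out 1 array gave 0. In these settings Dnajc6 was at -3.48 (adjusted p = 0.25), -3.43 (0.0654) and -3.02 (0.101).
The median difference with both arrays low in 5′ signal left out was -0.36 for all chaperone genes, -0.48 in the cytosol and nucleus, -0.52 for CCT and -0.34 in mitochondria. Without a filter the medians were -0.01 for all chaperone genes and -0.11 in the cytosol and nucleus, and without probe sets able to match several transcripts they were -0.05 and -0.02. The mitochondrial median of -0.05 was 0.16 without a filter and with the filter at log2 4, -0.27 with the filter at log2 7, and 0.39 without probe sets able to match several transcripts. Leaving out 1 array moved the medians between -0.30 and -0.01 (all), -0.45 and 0.03 (cytosol and nucleus), -0.43 and -0.01 (CCT), -0.21 and 0.02 (endoplasmic reticulum) and -0.15 and 0.06 (mitochondria). The cause was not tested.
Replicates 1 and 2 occur in both groups, and deviations from the group means correlated at 0.61 for the arrays numbered 1 and 0.58 for those numbered 2, but only 2 pairs exist and no label pairs them. CDP 3 with CMP 2, of unlike number, gave 0.33. With 2 CMP arrays their deviations are equal and opposite, so these correlations are not separate from each other. Signal near the table's lowest value limits Dnajc6, Dnajb14 and the small heat shock proteins.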
